A study of Mus musculus with 16 samples.

Results

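The genes described here are 10 markers of myeloid cells read in whole liver: the complement genes C1qa, C1qb and C1qc, together with Lyz2, Tyrobp, Fcer1g, Ctss, Aif1, Cd68 and Wfdc17. They were taken by symbol from a table of 55487 genes, and all 10 passed the filter on low counts that left 14553 genes. Wild type C57BL/6J mice aged 12 weeks were exposed to sustained hypoxia, intermittent hypoxia or overlap hypoxia, in which both are combined per the series title, or were kept in room air. Each group had 4 libraries. The sources used here give neither oxygen levels nor exposure times. Nothing in the labels says that the libraries of a group came from separate animals, so the p-values reflect the spread among libraries, which may be technical. Levels are CPM, the library-size scaled counts of edgeR's cpm function, after TMM normalization.

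Macrophages are the main source of C1q in the body. C1q is built from A, B and C chains, binds immune complexes and dying cells, and starts the classical complement pathway through the proteases C1r and C1s, which hepatocytes make. In liver most resident macrophages are Kupffer cells, which line the sinusoids and clear particles from portal blood. Tyrobp and Fcer1g encode small adaptors with an immunoreceptor tyrosine-based activation motif (ITAM), through which many myeloid receptors signal to the kinase Syk. In bulk tissue, fewer cells of a type and less RNA per cell cannot be told apart.

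The smallest library, overlap hypoxia replicate 3, held 10940275 counts and the largest, sustained hypoxia replicate 2, held 64789635. The protocol text names retina although the tissue label is liver. The hepatocyte gene Alb was at 36132 CPM or more in every library, and the photoreceptor gene Rcvrn was at 0 in all of them. Genes annotated as ribosomal RNA together took 1.55 to 2.77% of the counts under sustained, 18.5 to 34.8% under intermittent and 2.53 to 16.8% under overlap hypoxia, against 1.57 to 10.2% in room air. Mitochondrially encoded genes took 1.43 to 1.73%, 6.23 to 11.7% and 2.54 to 7.17% in the same 3 exposures, against 1.18 to 2.75% in room air. The intermittent hypoxia libraries thus lay apart from room air in both shares, and the exposure and these shares cannot be told apart there. Overlap hypoxia replicate 2 lay within the room air range for both.

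The promoters of 8 of the 10 genes were matched by symbol in the RefSeq promoter table of GRCm38.p6, which gives 250 bases before and 50 after a gene's start. They are shown because the genes moved largely together. The 5 chosen include 2 of the C1q chains and the gene with the lowest p in overlap hypoxia (Ctss). The others are the gene with the largest change in intermittent hypoxia (Wfdc17) and Cd68, which passed no test against room air. Capitals mark the hexamer GAGGAA on either strand, so that a match on the other strand reads TTCCTC. This is the core of the box bound by PU.1, the transcription factor that macrophages depend on. Each sequence runs 5′ to 3′ on the gene's strand, at chr4:136886151-136886450 for C1qb, chr4:136892865-136893164 for C1qc, chr3:95526536-95526835 for Ctss, chr11:83703806-83704105 for Wfdc17 and chr11:69666121-69666420 for Cd68. The genes C1qb, C1qc and Cd68 lie on the minus strand, and Ctss and Wfdc17 on the plus strand.
C1qb: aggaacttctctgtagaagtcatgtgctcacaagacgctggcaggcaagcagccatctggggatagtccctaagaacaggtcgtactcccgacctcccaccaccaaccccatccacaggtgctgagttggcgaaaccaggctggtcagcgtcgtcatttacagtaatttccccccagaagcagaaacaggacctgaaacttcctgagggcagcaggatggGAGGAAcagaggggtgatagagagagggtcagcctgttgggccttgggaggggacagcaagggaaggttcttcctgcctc
C1qc: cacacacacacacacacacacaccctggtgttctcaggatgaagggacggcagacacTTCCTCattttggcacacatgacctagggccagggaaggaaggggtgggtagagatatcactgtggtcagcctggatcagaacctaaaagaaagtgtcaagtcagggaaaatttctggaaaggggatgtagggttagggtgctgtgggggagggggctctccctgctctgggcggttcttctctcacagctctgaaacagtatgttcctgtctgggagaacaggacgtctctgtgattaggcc
Ctss: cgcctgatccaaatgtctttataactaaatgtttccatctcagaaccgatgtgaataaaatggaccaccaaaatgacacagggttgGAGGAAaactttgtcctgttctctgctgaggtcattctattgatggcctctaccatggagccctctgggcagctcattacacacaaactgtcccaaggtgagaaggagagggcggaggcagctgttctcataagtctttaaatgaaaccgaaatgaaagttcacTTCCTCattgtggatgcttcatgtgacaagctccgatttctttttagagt
Wfdc17: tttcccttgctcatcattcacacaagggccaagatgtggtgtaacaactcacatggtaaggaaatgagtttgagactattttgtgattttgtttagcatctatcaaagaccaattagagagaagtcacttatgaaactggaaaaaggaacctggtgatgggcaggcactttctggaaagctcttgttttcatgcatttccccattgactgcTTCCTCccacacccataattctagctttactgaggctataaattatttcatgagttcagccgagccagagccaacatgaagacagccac
Cd68: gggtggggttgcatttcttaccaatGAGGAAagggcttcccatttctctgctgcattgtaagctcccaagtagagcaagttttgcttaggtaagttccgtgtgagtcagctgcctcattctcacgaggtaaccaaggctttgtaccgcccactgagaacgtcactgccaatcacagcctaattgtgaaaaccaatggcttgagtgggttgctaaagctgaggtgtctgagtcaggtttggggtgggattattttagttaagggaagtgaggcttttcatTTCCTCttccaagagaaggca

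The hexamer occurred in 6 of 8 promoters, against 28.28% of the 32851 promoters in the table. Counted from the RefSeq start site, its lowest base was at −30 in C1qb, −193 in C1qc, −164 and 1 in Ctss. It was at −7 in Aif1, −225 and 30 in Cd68 and −39 in Wfdc17. This start differs from that of the gene coordinates given below in most of these genes. The difference is largest in C1qc and Wfdc17, where it lies inside those coordinates, so positions there depend on the annotation. Lyz2 and Fcer1g had no match in this window. TGANTCA, the letters of the AP-1 site, stood in 1 of 8 promoters, at −149 and −24 of Cd68, and in 7.808% of all. Of the cores of the hypoxia response element, ACGTG was in 0 of 8 (19.62% of all) and GCGTG in 1 of 8, that of Fcer1g (32.39% of all). TATAAA was found in Ctss and Wfdc17 and in 13.62% of all promoters. All were searched on both strands, and the hypoxia cores with A and G differ only in their first base. These matches describe letters and not binding, and Cd68, which passed no test against room air, holds the PU.1 hexamer at 2 positions.

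Under intermittent hypoxia 8 of the 10 genes were lower than in room air, and the same number were lower under overlap hypoxia, at an adjusted p under 0.05 in edgeR's quasi-likelihood test. Across all genes tested, 18.3% were called lower in intermittent and 2.89% in overlap hypoxia. The genes called were C1qa, C1qb, C1qc, Lyz2, Tyrobp, Fcer1g, Ctss and Wfdc17 in both comparisons, which share the room air libraries. Aif1 and Cd68 did not pass in either. Median log2 fold changes of the 10 genes were −0.59 under sustained, −1.18 under intermittent and −1.51 under overlap hypoxia, beside −0.01, 0.03 and 0.03 for all genes tested. Every library lay below every room air library for 2, 7 and 9 of the 10 genes in the same 3 exposures, against 4.32%, 18% and 7.14% of all genes tested.

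**Figure D1:**
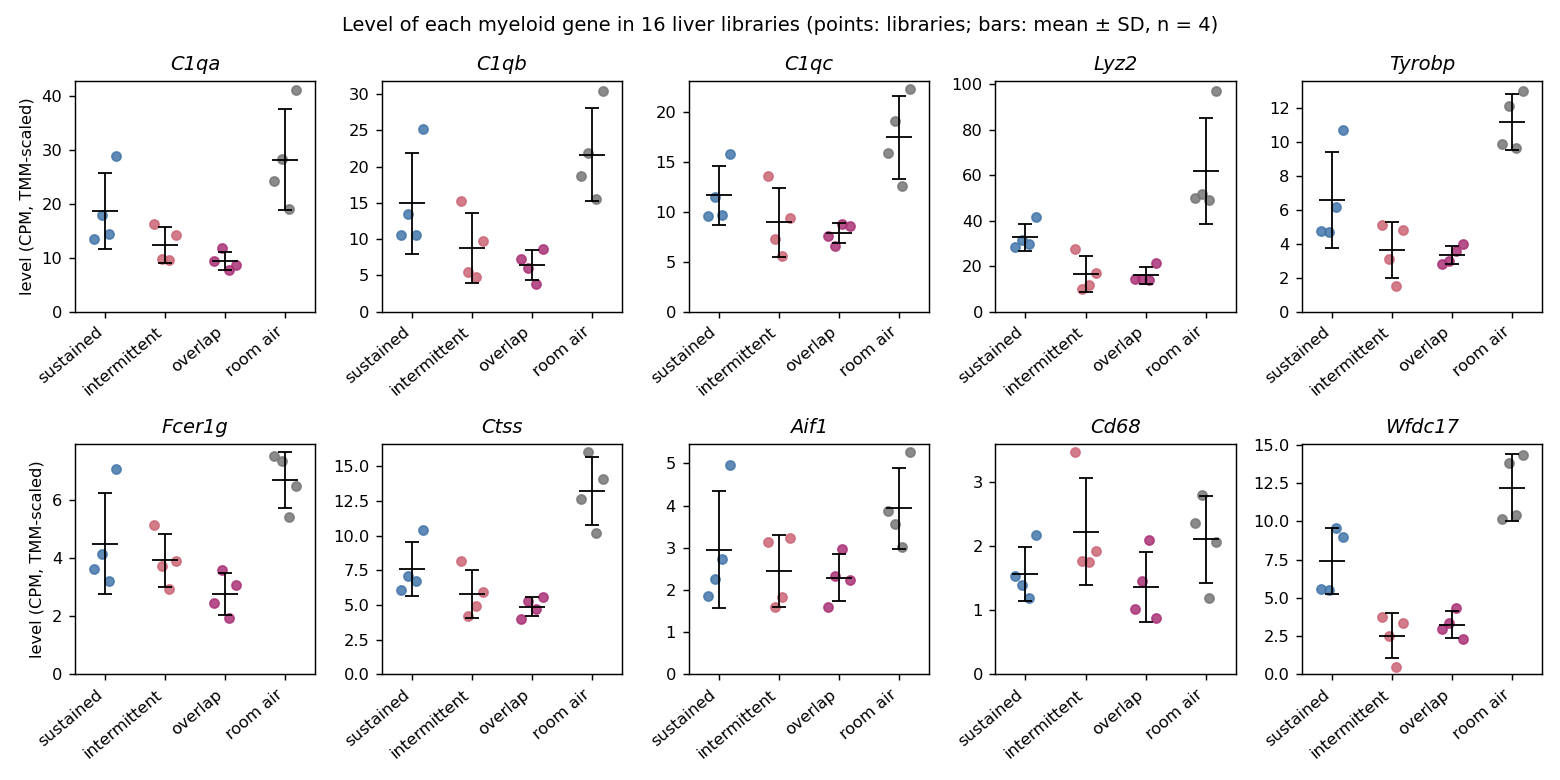
Level of each gene in CPM on the y axis for the 4 libraries of sustained, intermittent and overlap hypoxia and room air, with the mean and SD as black bars. Overlap hypoxia libraries sat below all room air libraries in each panel but that of Cd68, whose points overlap between all groups.

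C1qa, C1qb and C1qc lie side by side on chromosome 4 of GRCm38, between bases 136880129 and 136898803, all on the minus strand. Each encodes a chain of C1q, and the protein needs all of them. C1qa (ENSMUSG00000036887, 136895917 to 136898803) stood at 13.4, 17.9, 14.5 and 28.9 CPM in sustained hypoxia, 16.3, 9.70, 9.61 and 14.2 CPM in intermittent hypoxia and 9.48, 11.8, 7.69 and 8.72 CPM in overlap hypoxia, against 24.3, 28.4, 19.1 and 41.2 CPM in room air. Every intermittent and overlap hypoxia library was below the lowest room air library, while sustained hypoxia replicate 4 was above 3 of the 4 room air libraries. C1qa was 2.26-fold lower in intermittent hypoxia (log2 fold change −1.18, SE 0.26, edgeR adjusted p = 0.00227) and 2.98-fold lower in overlap hypoxia (log2 −1.58, SE 0.27, adjusted p = 0.00558).

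C1qb (ENSMUSG00000036905, 136880129 to 136886187) stood at 10.5, 13.4, 10.5 and 25.2 CPM in sustained, 15.2, 5.47, 4.80 and 9.73 CPM in intermittent and 7.31, 5.96, 3.76 and 8.60 CPM in overlap hypoxia, against 18.8, 21.9, 15.5 and 30.4 CPM in room air. Intermittent hypoxia replicate 1 came close to the lowest room air library without reaching it. C1qb was 2.44-fold lower in intermittent hypoxia (log2 −1.28, SE 0.39, edgeR adjusted p = 0.0189) and 3.31-fold lower in overlap hypoxia (log2 −1.73, SE 0.40, adjusted p = 0.0237). Its SE was the largest among the 3 chains. Its call in intermittent hypoxia was lost without room air replicate 4 or intermittent hypoxia replicate 2 or 3 (adjusted p = 0.0651, 0.0627 and 0.0541 in edgeR). Its call in overlap hypoxia was lost without room air replicate 2, 3 or 4 or overlap hypoxia replicate 1 or 3, with edgeR adjusted p between 0.0505 and 0.0770.

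C1qc (ENSMUSG00000036896, 136889804 to 136893065) stood at 9.59, 11.5, 9.67 and 15.9 CPM in sustained, 13.6, 7.28, 5.59 and 9.44 CPM in intermittent and 7.55, 6.62, 8.82 and 8.63 CPM in overlap hypoxia, against 15.9, 19.1, 12.6 and 22.3 CPM in room air. Intermittent hypoxia replicate 1 was above the lowest room air library, so these groups overlapped. C1qc was 1.93-fold lower in intermittent hypoxia (log2 −0.95, SE 0.24, edgeR adjusted p = 0.00374) and 2.22-fold lower in overlap hypoxia (log2 −1.15, SE 0.24, adjusted p = 0.0111).

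Per kilobase of exon, C1qa reached 27.2 ± 9.07 CPM per kilobase in room air (mean ± SD, n = 4), C1qb 19.9 ± 5.90 and C1qc 9.05 ± 2.16. C1qc has 1931 annotated exon bases and C1qb 1088, so the level of C1qc depends on the longer model being the one transcribed. The ratio of C1qb to C1qc per kilobase was 1.99, 1.33, 1.53 and 1.83 in intermittent hypoxia and 1.72, 1.60, 0.756 and 1.77 in overlap hypoxia, against 2.10, 2.03, 2.18 and 2.43 in room air. All libraries of both exposures were below all room air libraries. The exact two-sided permutation test gave p = 0.0286 for each (n = 4 per group), the smallest these groups allow, and 0.129 after adjustment over 9 such tests, so neither passed. In sustained hypoxia this ratio was 1.95, 2.07, 1.93 and 2.82, with replicates 1 and 3 below every room air library. It averaged 2.19 ± 0.423 there, against 2.18 ± 0.172 in room air (exact permutation p = 0.971, n = 4 each). The ratios were chosen after their values were seen. The ratio of 0.756 rests on overlap hypoxia replicate 3, in which C1qb had 43 counts.

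**Figure D2:**
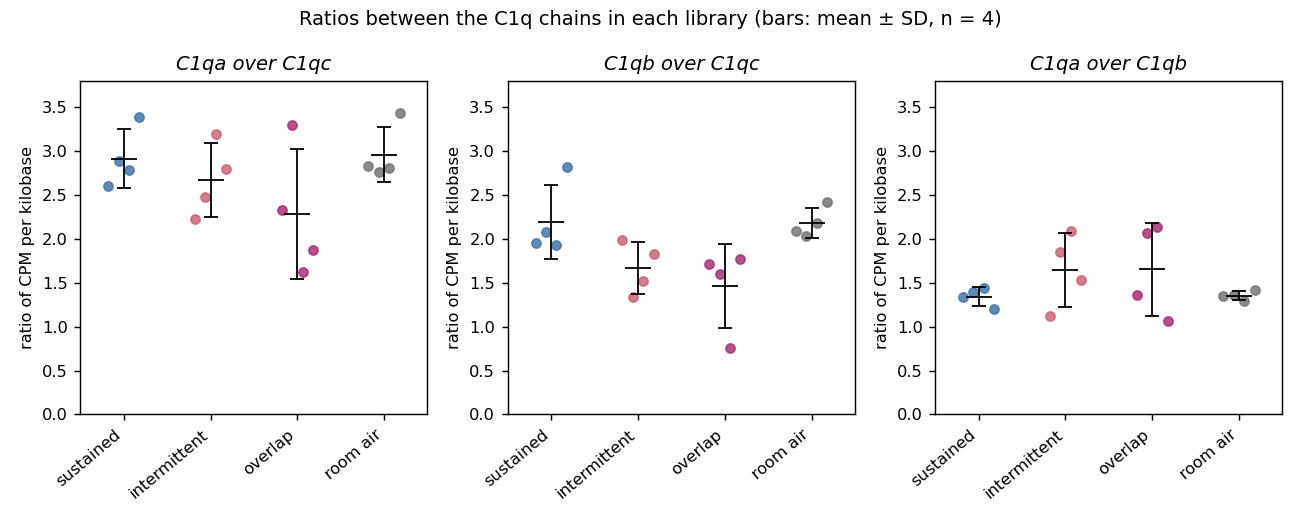
Ratios of CPM per kilobase between the 3 C1q chains in each library of sustained, intermittent and overlap hypoxia and room air, with the mean and SD as black bars. C1qb over C1qc stayed at or below 1.99 in all 8 intermittent and overlap hypoxia libraries, against at least 2.03 in room air.

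Lyz2 (ENSMUSG00000069516, chromosome 10, 117277331 to 117282321), which encodes the lysozyme of macrophages and other myeloid cells, had the highest mean level per kilobase of the 10 genes in every group. It stood at 28.3, 31.5, 29.8 and 41.5 CPM in sustained, 27.5, 10.02, 11.6 and 17.0 CPM in intermittent and 14.2, 14.4, 13.8 and 21.4 CPM in overlap hypoxia, against 50.2, 51.5, 48.9 and 96.9 CPM in room air. No library of any exposure reached the lowest room air library. Lyz2 was 3.73-fold lower in intermittent hypoxia (log2 −1.90, SE 0.30, edgeR adjusted p = 0.000249) and 3.87-fold lower in overlap hypoxia (log2 −1.95, SE 0.31, adjusted p = 0.00480). Its transcripts share 15.39% of their 50-base words with Lyz1, which did not exceed 0.938 CPM in any library, and adding the counts of both genes left Lyz2 called in both comparisons. The other 9 genes share no such word with another gene.

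Wfdc17 (ENSMUSG00000069792, chromosome 11, 83703991 to 83706268) encodes a small secreted protein with a whey acidic protein domain, which activated macrophages make. It stood at 5.60, 5.55, 9.59 and 8.97 CPM in sustained, 3.76, 2.49, 0.480 and 3.36 CPM in intermittent and 2.94, 3.38, 4.37 and 2.32 CPM in overlap hypoxia, against 10.2, 13.8, 10.5 and 14.4 CPM in room air. No exposed library reached the room air range, and intermittent hypoxia replicate 3 was the lowest of all with 11 counts. Wfdc17 had the largest fall of the 10 genes in intermittent hypoxia, 4.70-fold (log2 −2.23, SE 0.39, edgeR adjusted p = 0.000389), and was 3.84-fold lower in overlap hypoxia (log2 −1.94, SE 0.39, adjusted p = 0.0117).

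Tyrobp (ENSMUSG00000030579, chromosome 7, 30413760 to 30417585), also called DAP12, pairs with receptors such as Trem2. It stood at 4.74, 4.71, 6.15 and 10.7 CPM in sustained, 5.12, 3.11, 1.53 and 4.82 CPM in intermittent and 2.82, 2.99, 3.58 and 4.01 CPM in overlap hypoxia, against 9.89, 12.2, 9.66 and 13.04 CPM in room air. Only sustained hypoxia replicate 4 lay within the room air range. Tyrobp was 3.02-fold lower in intermittent hypoxia (log2 −1.59, SE 0.31, edgeR adjusted p = 0.000617) and 3.35-fold lower in overlap hypoxia (log2 −1.75, SE 0.31, adjusted p = 0.00623).

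Fcer1g (ENSMUSG00000058715, chromosome 1, 171229572 to 171234365) encodes the gamma chain shared by Fc receptors. It stood at 3.61, 4.12, 3.20 and 7.04 CPM in sustained, 5.12, 3.73, 2.93 and 3.91 CPM in intermittent and 2.44, 3.58, 1.92 and 3.06 CPM in overlap hypoxia, against 7.50, 7.32, 5.41 and 6.48 CPM in room air. All intermittent and overlap hypoxia libraries were below the room air range. The fall was 1.69-fold in intermittent hypoxia (log2 −0.76, SE 0.24, edgeR adjusted p = 0.0189) and 2.38-fold in overlap hypoxia (log2 −1.25, SE 0.25, adjusted p = 0.00848). The call in intermittent hypoxia was lost without replicate 2 or 3 of that group (edgeR adjusted p = 0.0502 and 0.0603) and with offsets for gene length and GC content (adjusted p = 0.198).

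Ctss (ENSMUSG00000038642, chromosome 3, 95526786 to 95556403) encodes cathepsin S, the protease that trims the invariant chain of MHC class II in antigen-presenting cells. It stood at 6.11, 7.11, 6.71 and 10.4 CPM in sustained, 8.14, 4.20, 4.93 and 5.91 CPM in intermittent and 3.97, 5.28, 4.72 and 5.57 CPM in overlap hypoxia, against 12.6, 16.02, 10.2 and 14.1 CPM in room air. Room air replicate 3 was the single room air library that a sustained hypoxia library passed. Ctss had the lowest p of the 10 genes in sustained and in overlap hypoxia. It was 2.27-fold lower in intermittent hypoxia (log2 −1.19, SE 0.21, edgeR adjusted p = 0.000273) and 2.71-fold lower in overlap hypoxia (log2 −1.44, SE 0.22, adjusted p = 0.00213).

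Aif1 and Cd68 differed from the rest in passing no test against room air. Aif1 (ENSMUSG00000024397, chromosome 17, 35170991 to 35176068), which encodes the actin-binding protein IBA1, stood at 1.85, 2.27, 2.74 and 4.97 CPM in sustained, 3.15, 1.59, 1.83 and 3.24 CPM in intermittent and 1.60, 2.34, 2.97 and 2.25 CPM in overlap hypoxia, against 3.88, 3.56, 3.02 and 5.28 CPM in room air. The overlap hypoxia libraries were all below the lowest room air library, replicate 3 only just. Its log2 fold change was −0.67 (SE 0.31, edgeR adjusted p = 0.0935) in intermittent and −0.81 (SE 0.31, adjusted p = 0.121) in overlap hypoxia.

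Cd68 (ENSMUSG00000018774, chromosome 11, 69664213 to 69666153) encodes macrosialin, a glycoprotein of late endosomes and lysosomes. It stood at 1.53, 1.39, 1.20 and 2.17 CPM in sustained, 3.47, 1.77, 1.75 and 1.93 CPM in intermittent and 1.02, 1.46, 2.10 and 0.884 CPM in overlap hypoxia, against 2.37, 2.81, 1.19 and 2.06 CPM in room air. All groups overlapped, and the highest library of all was intermittent hypoxia replicate 1. Its log2 fold change was 0.09 in intermittent hypoxia (SE 0.32, edgeR adjusted p = 0.858) and −0.69 in overlap hypoxia (SE 0.34, adjusted p = 0.228). The sign in intermittent hypoxia turned without replicate 1 of that group (log2 −0.22) or without room air replicate 3 (log2 −0.11). Cd68 rested on few reads, 24 to 149 counts in a library.

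**Figure D3:**
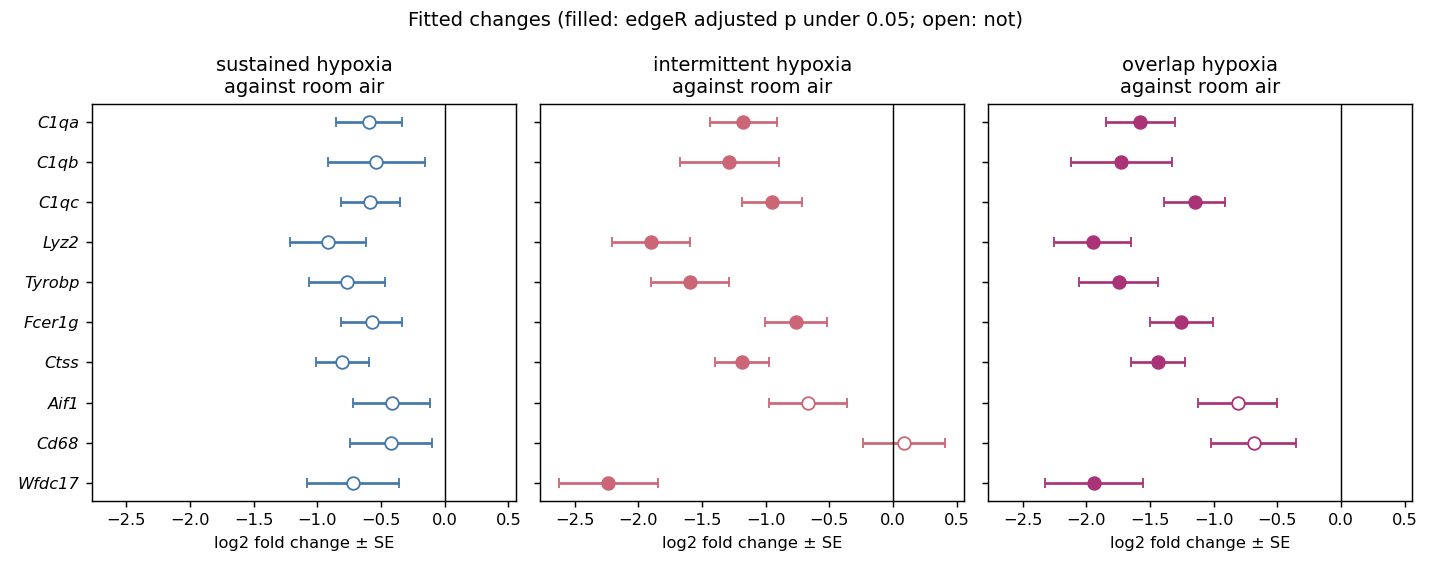
Log2 fold change against room air with its SE for each gene in sustained, intermittent and overlap hypoxia, with filled points where the edgeR adjusted p was under 0.05. All sustained hypoxia points are open, and 8 of 10 are filled in each of the other panels, with Aif1 and Cd68 open.

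In sustained hypoxia edgeR called 0 of the 10 genes, and 0.0481% of all genes tested. All 10 log2 fold changes were negative, between −0.92 (Lyz2) and −0.42 (Aif1 and Cd68), and 6 had an unadjusted p under 0.05, as had 11.5% of all genes tested. Ctss had a log2 fold change of −0.80 (SE 0.21, edgeR adjusted p = 0.145) and Lyz2 one of −0.92 (SE 0.30, adjusted p = 0.255). DESeq2 called 1 of the 10, Ctss (adjusted p = 0.0356), and 1.64% of all genes it tested. Limma-voom with quality weights called 2, Ctss (adjusted p = 0.0165) and Tyrobp (adjusted p = 0.0330), and 1.7% of all genes. Sustained hypoxia replicates 1, 2 and 3 each had 9 of the 10 genes below every room air library, and replicate 4 had 2, beside 22.8%, 24.1%, 23.4% and 22.4% of all genes tested in these 4 libraries. Without replicate 4 the median was −0.88 and edgeR still called 0 genes, with adjusted p from 0.0930 (Ctss) to 0.576 (Cd68).

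The exposures were then set against each other. In overlap against sustained hypoxia edgeR called 0 of the 10 genes (0.165% of all genes tested), with a median log2 fold change of −0.83, although 8 had an unadjusted p under 0.05 (20.5% of all genes tested) and 7 had every overlap hypoxia library below every sustained hypoxia library (5.58% of all genes tested). The lowest adjusted p was that of C1qa (log2 −0.98, SE 0.27, edgeR adjusted p = 0.0706), which passed at 0.0298 without overlap hypoxia replicate 2. That fit called 1 of the 10 genes, beside 1547 of all 14976 genes tested. On all 16 libraries DESeq2 called 5 and limma-voom 3 of the 10 genes, beside 7.29% and 8.41% of all genes that each tested. In overlap against intermittent hypoxia 0 were called (6.15% of all genes tested) and 1 had an unadjusted p under 0.05 (25.3% of all genes tested). DESeq2 and limma-voom also called 0, beside 1613 of 13668 and 494 of 14553 genes that each tested. The log2 fold changes of the 10 genes ran from −0.77 (Cd68, SE 0.34) to 0.29 (Wfdc17, SE 0.39). The sign of C1qc, Lyz2, Tyrobp, Aif1 and Wfdc17 in this comparison turned when single libraries were left out.

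Intermittent against sustained hypoxia gave 3 genes called lower, beside 18.9% of all genes tested, and 4 had an unadjusted p under 0.05, beside 46.9% of all genes. Wfdc17 was 2.86-fold lower (log2 −1.51, SE 0.38, edgeR adjusted p = 0.00548), Lyz2 1.98-fold lower (log2 −0.98, SE 0.30, adjusted p = 0.0170) and Tyrobp 1.77-fold lower (log2 −0.83, SE 0.30, adjusted p = 0.0386). For Wfdc17 and Lyz2 every intermittent hypoxia library was below every sustained hypoxia library. The count fell to 1, Wfdc17, without sustained hypoxia replicate 4 or intermittent hypoxia replicate 2 or 3, and reached 7 without intermittent hypoxia replicate 1. With the ribosomal RNA share as a covariate all 3 calls were lost, and the log2 fold change was 0.36 for Wfdc17, −0.46 for Lyz2 and 0.03 for Tyrobp. That fit called 1 of all 14553 genes tested, against 5584 without the covariate, so the loss was not particular to these 3 genes. With offsets for length and GC content, Lyz2 (edgeR adjusted p = 0.108) and Tyrobp (adjusted p = 0.225) were lost and Cd68 was called higher (log2 0.94, adjusted p = 0.0347).

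The departure from additivity is what remains of a gene's log2 change under overlap hypoxia after the log2 changes of both single exposures are subtracted. It was positive for 9 of 10 genes, with a median of 0.33, and edgeR, DESeq2 and limma-voom each called 0. Of all genes tested, edgeR called 0.454%, DESeq2 549 of 10951 and limma-voom 272 of 14553. None of the 10 had an unadjusted p under 0.05 in edgeR, beside 17.5% of all genes tested. The highest were Wfdc17 (1.01, SE 0.53, edgeR adjusted p = 0.339) and Lyz2 (0.87, SE 0.42, adjusted p = 0.300). With the ribosomal RNA share as a covariate the median was −0.03. Leaving out single libraries turned the sign for C1qa, C1qb and Fcer1g, whose lowest values were −0.04, −0.12 and −0.06. Since oxygen levels are not given, the single exposures need not have the same strength alone as in the combination.

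The composition of the libraries was set beside these calls. Overlap hypoxia replicate 2, with 2.53% ribosomal RNA and 2.54% mitochondrial counts, both inside the room air range, had 9 of the 10 genes below every room air library, beside 27.7% of all genes tested. Overlap hypoxia replicates 1 and 4 had all 10 below, beside 29.0% and 24.8% of all genes, with 9.83% and 16.8% ribosomal RNA. With the ribosomal RNA share as a covariate, 7 of the 8 calls in overlap hypoxia held and C1qb was lost (log2 −1.53, edgeR adjusted p = 0.0843). For overlap hypoxia that fit called 361 of all 14553 genes tested, against 916 without the covariate. With the same covariate 0 of 8 held in intermittent hypoxia, and the median log2 fold change of the 10 genes was −0.51, against −1.18 without it. The log2 fold change was then −0.34 for C1qa, −0.39 for C1qc and −0.60 for Wfdc17, and the lowest adjusted p was that of Lyz2 (log2 −1.43, SE 0.58, edgeR adjusted p = 0.233). In that fit 77 of all 14553 genes tested were called in intermittent hypoxia, against 5404 without the covariate. All 10 genes are shorter than the median of 4032 exon bases of the genes tested, and fold change rose with exon length across genes in intermittent and overlap hypoxia (Spearman rho 0.257 and 0.208 over 14540 genes, which are not independent replicates). In sustained hypoxia the sign was opposite (rho −0.120). With offsets for length and GC content the calls were 7 in intermittent and 8 in overlap hypoxia, beside 4787 and 486 of all 14553 genes tested.

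**Figure D4:**
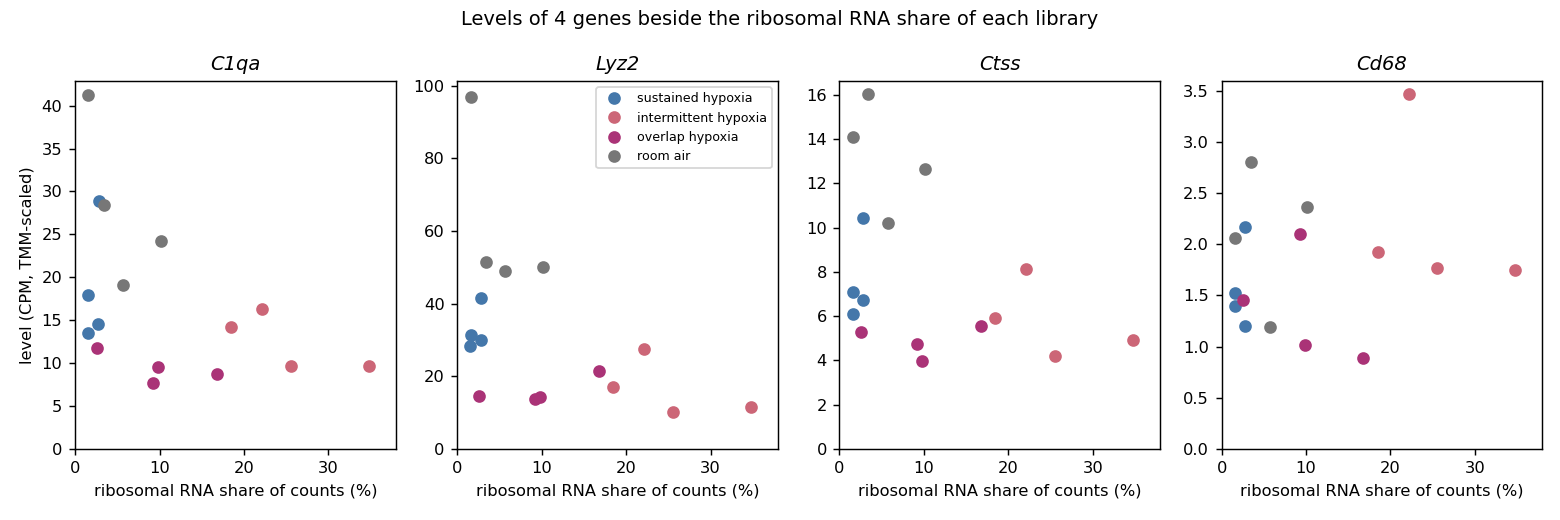
CPM of C1qa, Lyz2, Ctss and Cd68 on the y axis against the percentage of counts from ribosomal RNA on the x axis, 1 point per library, coloured by exposure. Overlap hypoxia replicate 2, at 2.53% ribosomal RNA, lies below the room air points for C1qa, Lyz2 and Ctss.

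The 10 genes ranged widely in level. In room air the order per kilobase was Lyz2 (47.0 CPM per kilobase), C1qa (27.2), Wfdc17 (22.9), C1qb (19.9), Tyrobp (16.8), Ctss (9.75), C1qc (9.05), Fcer1g (7.64), Aif1 (2.57) and Cd68 (1.68). Neighbours in this order had overlapping library ranges except Tyrobp above Ctss and Fcer1g above Aif1. Over the 16 libraries, the log2 level of C1qc followed the mean of the other 9 genes most closely (Pearson r 0.97, and 0.92 after subtracting group means), and that of Cd68 least (0.44 and 0.57). These values are descriptions over libraries that share their depth and composition.

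Among all other genes tested, the 10 whose log2 CPM was most like the mean of the 10 described here over the 16 libraries were Clec4f (r 0.96), Cd300c2 (0.96), Cd5l (0.96), Cluh (0.95), H2-Ab1 (0.94), Timd4 (0.93), Cyba (0.91), Cfp (0.91), Fcgr3 (0.91) and Gngt2 (0.90). After subtracting group means these r lay between 0.65 (Gngt2) and 0.91 (H2-Ab1). Clec4f, Cd5l and Timd4 are Kupffer cell markers, a C-type lectin, a secreted scavenger protein and a receptor for phosphatidylserine. Cfp encodes properdin, which stabilises the alternative complement convertase, and Cyba the small subunit of the phagocyte oxidase cytochrome.

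Kupffer cell markers fell beside the general myeloid genes. Of 12 tested, 7 were called lower and 0 higher in intermittent hypoxia (median log2 −0.79) and the same numbers in overlap hypoxia (median −1.15), and 0 in sustained hypoxia (median −0.64). Beside these counts, 18.3% of all genes tested were called lower in intermittent and 2.89% in overlap hypoxia. Adgre1, which encodes F4/80, averaged 0.854 ± 0.444 CPM in intermittent and 0.558 ± 0.149 CPM in overlap hypoxia, against 3.44 ± 1.01 CPM in room air (SD, n = 4 each). Its log2 fold changes were −2.005 (SE 0.34, edgeR adjusted p = 0.000193) and −2.55 (SE 0.36, adjusted p = 0.00108). Folr2, a folate receptor of resident macrophages, had log2 fold changes of −2.30 and −1.98, Cd5l of −1.33 and −1.45, and Clec4f of −1.45 and −1.68, each called in both exposures. The summed level of the 12 markers ran from 203.5 to 253.9 CPM in sustained, 132.2 to 200.1 CPM in intermittent and 161.0 to 215.3 CPM in overlap hypoxia, against 218.7 to 300.7 CPM in room air. With the ribosomal RNA share as a covariate, 0 of 12 were called in intermittent and 6 in overlap hypoxia, beside 77 and 361 of all 14553 genes tested.

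Of 32 other pan-myeloid and leukocyte genes, 4 were called lower and 1 higher in intermittent hypoxia (median log2 −0.44), and 6 lower in overlap hypoxia (median −0.76). Of all genes tested, 18.3% were called lower and 18.9% higher in intermittent hypoxia, and 2.89% lower and 3.41% higher in overlap hypoxia, so the count of lower genes in intermittent hypoxia was below that share for this list. The same shares stand behind the counts of each list that follows. The 4 were Cd53, a tetraspanin (log2 −1.06), Cd300a, an inhibitory receptor (−1.76), Cd52 (−0.58) and Cd14, the lipopolysaccharide co-receptor (−1.30). The gene called higher was Lcp1, the actin bundler L-plastin (log2 0.40). In overlap hypoxia Cd53 (log2 −1.49), Cd300a (−1.86) and Cd52 (−1.09) were again lower, with Coro1a, Cybb and Fermt3.

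Tyrobp and Fcer1g feed into the receptors and kinases of the ITAM pathway. Of 24 listed, 17 passed the filter on low counts. In intermittent hypoxia 6 of them were lower and 1 higher (median log2 −0.30), and in overlap hypoxia 3 were lower and 0 higher (median −0.75). The Fc receptors Fcgr4 (log2 −1.11 in intermittent and −1.71 in overlap hypoxia) and Fcgr3 (−0.90 and −1.42), which need the Fcer1g chain, were called in both, as was Cd300c2 (−0.95 and −1.49). Clec4n, which encodes dectin-2, was called in intermittent hypoxia (log2 −1.64, edgeR adjusted p = 0.0239) and had a log2 fold change of −1.26 in overlap hypoxia (adjusted p = 0.175). Syk, the kinase downstream, was higher in intermittent hypoxia (log2 0.96, SE 0.33, edgeR adjusted p = 0.0269), with a log2 fold change of −0.35 in overlap hypoxia (adjusted p = 0.588).

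The partners of C1q in the classical pathway are made mainly by hepatocytes. Of 8 tested, 3 were lower and 1 higher in intermittent hypoxia (median log2 −0.22), beside 18.3% and 18.9% of all genes, and 1 was lower in overlap hypoxia. C4bp, a chain of the C4b-binding protein that restrains the pathway, averaged 308.7 ± 36.8 CPM in intermittent and 402.0 ± 64.996 CPM in overlap hypoxia, against 648.3 ± 94.5 CPM in room air (SD, n = 4 each), and was called in both (edgeR adjusted p = 4.4e-05 and 0.0151). In intermittent hypoxia the protease C1s1 (log2 −0.42, edgeR adjusted p = 0.00959) and the C1 inhibitor Serping1 (log2 −0.42, adjusted p = 0.0174) were lower, and C3 was higher (log2 0.42, adjusted p = 0.0311).

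Of 15 receptors listed for C1q and for dying cells, 13 were tested. In intermittent hypoxia 4 were higher and 1 lower (median log2 0.29), beside 18.9% and 18.3% of all genes, while 0 were called in overlap hypoxia. Scarf1, a scavenger receptor that binds C1q on dying cells, averaged 9.38 ± 3.28 CPM in intermittent hypoxia, against 3.02 ± 0.271 CPM in room air (SD, n = 4 each; log2 1.63, SE 0.23, edgeR adjusted p = 3.13e-05). Stab1 (log2 0.81), a scavenger receptor of sinusoidal endothelium, Mertk (0.80), the receptor kinase of phagocytes, and Lrp1 (0.43) were also higher. Calr, whose product calreticulin binds C1q, was lower (log2 −0.55, edgeR adjusted p = 0.0138). Megf10 was at 0 counts in every library.

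Lysosomal proteases and their inhibitors are the company of Ctss. Of 19 tested, 9 were lower and 2 higher in intermittent hypoxia (median log2 −0.36), beside 18.3% and 18.9% of all genes, and 4 were lower in overlap hypoxia (median −0.34). Lgmn, which encodes legumain, averaged 10.1 ± 1.20 CPM in intermittent and 14.5 ± 2.32 CPM in overlap hypoxia, against 30.2 ± 5.51 CPM in room air (SD, n = 4 each), with log2 fold changes of −1.58 (SE 0.17, edgeR adjusted p = 5.84e-06) and −1.05 (SE 0.16, adjusted p = 0.00290). Ctsh (log2 −1.31 and −0.81), Hexa (−0.89 and −0.70) and Ctsb (−0.36 and −0.49) were called in both. Grn, which encodes progranulin, was higher in intermittent hypoxia (log2 1.03, edgeR adjusted p = 0.000385), as was Ctsz (log2 0.41). Hepatocytes express many of these genes too.

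Of 17 transcription factors and growth factors of macrophages tested, counts in intermittent hypoxia were near the shares of all genes (18.3% lower and 18.9% higher). The 2 lower were Nr1h3 (LXR alpha, log2 −0.80) and Irf5 (−1.42), and the 3 higher were Csf1 (the macrophage growth factor, 1.35), Cebpb (1.12) and Zeb2 (0.75). In overlap hypoxia 0 of 17 were called. Of 10 MHC class II genes, H2-Ab1 (log2 −1.27, edgeR adjusted p = 0.0216) and H2-DMb1 (−1.14, adjusted p = 0.0407) were lower in intermittent hypoxia. In overlap hypoxia 0 were called, with a median of −0.97. H2-Ab1 had a log2 fold change of −1.34 there (edgeR adjusted p = 0.0608).

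**Figure D5:**
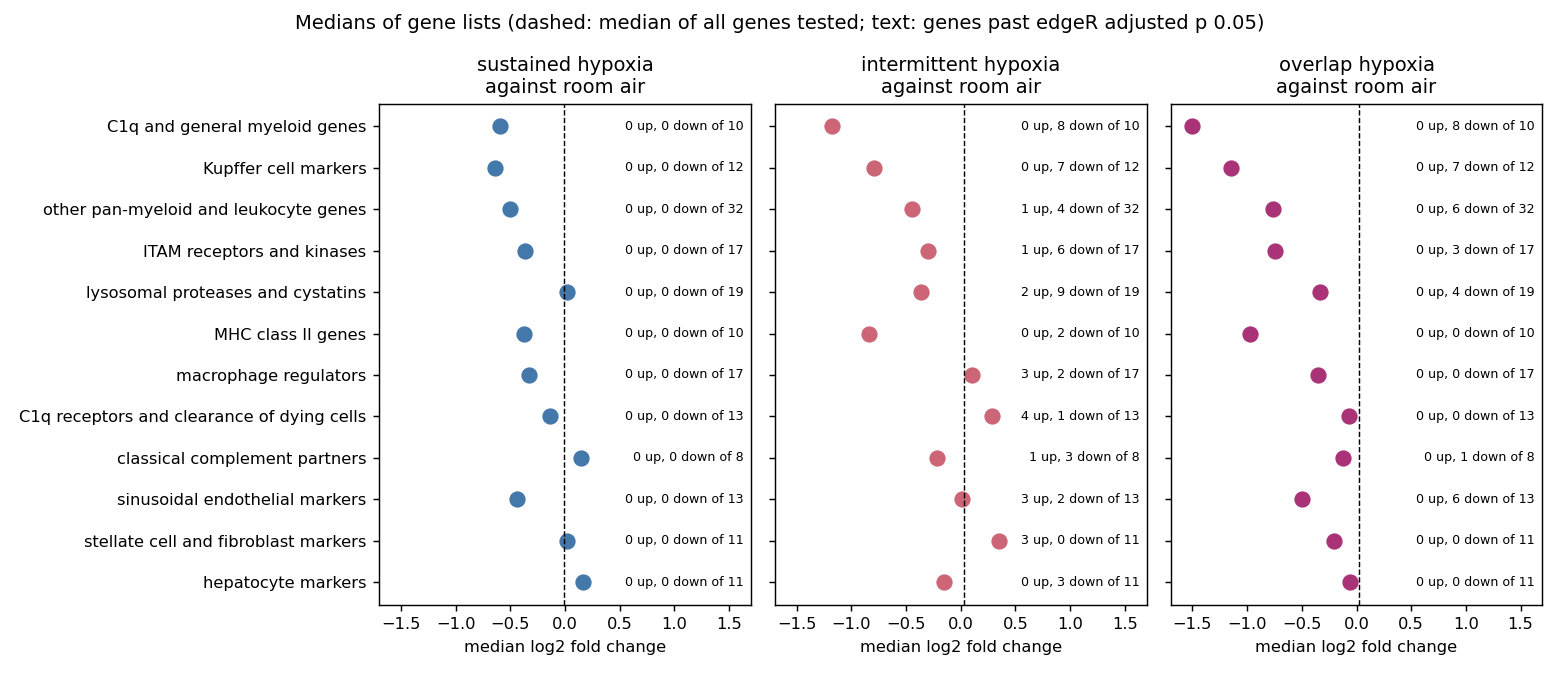
Median log2 fold change against room air of the 10 genes and 11 other gene lists in sustained, intermittent and overlap hypoxia, with the number of genes called in each direction as text and the median of all genes tested as a dashed line. The C1q and general myeloid genes have the lowest of the plotted medians in intermittent hypoxia (−1.18) and overlap hypoxia (−1.51), and the Kupffer cell markers stand at −0.79 and −1.15. Neutrophil markers, which are not plotted, had medians of −1.08 and −1.47 over 5 genes tested.

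Markers of other cells were read beside these lists. Neutrophil markers summed to 1.33 to 3.26 CPM in sustained, 1.72 to 3.70 CPM in intermittent and 0.584 to 2.97 CPM in overlap hypoxia, against 2.68 to 5.78 CPM in room air, with Camp at 0 everywhere. Their means were 1.95, 2.45 and 1.81 CPM in the 3 exposures, against 4.29 CPM in room air, and the median log2 fold changes of the genes tested were −1.27, −1.08 and −1.47. Of the 5 of 13 that were tested, S100a8 was lower (log2 −2.41) and Csf3r higher (log2 2.36) in intermittent hypoxia. Of 9 monocyte markers tested, Plac8 (log2 −0.73) and Ms4a4c (−2.72) were lower in intermittent hypoxia and 0 were called in overlap hypoxia, and of 9 dendritic cell markers 0 were called in either. Dendritic cell markers summed to 4.50 to 5.81 CPM in intermittent hypoxia, above every room air library (3.14 to 4.25 CPM), and to 2.45 to 3.73 CPM in overlap hypoxia. Median log2 fold changes of the dendritic cell markers tested were 0.52 in intermittent and −0.02 in overlap hypoxia. All those listed but Clec9a and Zbtb46 stayed under 1 CPM in every library. Of 13 sinusoidal endothelial markers 3 were higher and 2 lower in intermittent hypoxia, and 6 were lower in overlap hypoxia, among them Mrc1 (log2 −1.37) and Fcgr2b (−0.82), which macrophages can also express. Their sum ran from 139.5 to 201.8 CPM in sustained, 198.9 to 228.9 CPM in intermittent and 90.8 to 161.3 CPM in overlap hypoxia, against 182.4 to 223.7 CPM in room air. Stellate cell markers had 3 of 11 higher in intermittent and 0 called in overlap hypoxia. Hepatocyte markers had 3 of 11 lower in intermittent and 0 called in overlap hypoxia, and their sums overlapped between all groups. Of B cell markers 1 of 5 and of T and NK cell markers 1 of 8 were lower in intermittent hypoxia, Ms4a1 (log2 −2.28) and Gzma (−2.43), and 0 were called in overlap hypoxia. Csf3r, Ms4a4c, Ms4a1 and Gzma stayed under 1 CPM in every library, so their large log2 changes rest on few reads. B cell markers summed to 4.97 to 18.4 CPM in sustained, 6.84 to 10.2 CPM in intermittent and 3.67 to 8.83 CPM in overlap hypoxia, against 11.9 to 16.7 CPM in room air. Every intermittent and overlap hypoxia library was thus below every room air library, with median log2 fold changes of −0.60 and −1.01. Of 5 cholangiocyte and 5 erythroid markers tested 0 were called in either exposure, and in sustained hypoxia 0 genes of any list were called. The part of these cells in the levels of the 10 genes was not tested.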

How the data were processed

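Whole liver RNA was sequenced in 16 libraries, and the authors deposited a table of expected counts per gene, 49.25% of the nonzero ones not whole numbers. Bowtie 1.3.0, RSEM and GRCm38 are named in the submitters' processing notes, and no source used here gives the annotation release or strand setting. Antisense reads cannot be told apart. No member overlaps exons of another gene.

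Expected counts were rounded. Symbols, coordinates and exon lengths came from GENCODE M21 of the same build by Ensembl identifier, which named 55227 genes. After filterByExpr of edgeR 4.0.16 (R 4.3.3) and TMM scaling, 1 quasi-likelihood model with robust dispersion was fitted to all 16 libraries and p-values were adjusted over 14553 genes by Benjamini-Hochberg, with 7 comparisons and calls at 0.05. CPM per kilobase divides CPM by exon length. Pearson r used log2 CPM with a prior count of 2. The fit was tested on simulated counts for intermittent hypoxia against room air. It recovered 43.8% and 52% of genes set to log2 changes of −1 and 1, and 87% and 86% at −2 and 2. Many changes of the smaller size would thus go uncalled. Libraries had 10940275 to 64789635 counts.

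Members and lists were chosen with earlier results of these data known. Named genes were the 10 members, up to 4 genes per list with the lowest p in intermittent hypoxia, members of counts of 5 or fewer, and the 10 genes most alike. Coro1a, Cybb, Fermt3 and Fcgr2b were named after their values were seen. Alternatives were other scalings, no filter, DESeq2 1.42.0, limma-voom (limma 3.58.1), a ribosomal RNA covariate, length and GC offsets, a replicate block, Lyz1 and Lyz2 added together, single libraries left out and, chosen after seeing the data, 2 more.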

Additional observations from a re-analysis of the deposited data

Results flagged for a closer look

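In 3 of 40 groups of 4 libraries, 1 library stood far from the others by Dixon's test (gap over range above the 95% critical value), which chance does in about 1 in 20 groups. Lyz2 was at 21.38 CPM in overlap hypoxia replicate 4, against 13.8 to 14.4 CPM in the other overlap hypoxia libraries (gap over range 0.921). Lyz2 was also at 96.92 CPM in room air replicate 4, against 48.9 to 51.5 CPM in the other room air libraries (0.946). Cd68 was at 3.468 CPM in intermittent hypoxia replicate 1, against 1.75 to 1.93 CPM in the other intermittent hypoxia libraries (0.894).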

How the results depend on the processing

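In sustained hypoxia against room air, 1 gene was called by DESeq2 and 2 by limma-voom, against 0 by edgeR. In intermittent hypoxia against room air 0 of 8 calls held with the ribosomal RNA covariate, and 6 to 8 when single libraries were left out. The covariate fit called 77 of all 14553 genes tested there. Overlap hypoxia against room air kept 7 or 8 calls under every alternative run. In overlap against sustained hypoxia 5 genes were called by DESeq2, 3 by limma-voom, 2 with the replicate block and 0 or 1 without single libraries. The 1 came without overlap hypoxia replicate 2, in a fit that called 1547 of all 14976 genes tested. In intermittent against sustained hypoxia the 3 calls became 0 with the covariate, a fit that called 1 of all 14553 genes tested. They became 1 without the filter, 5 with the replicate block and 1 to 7 without single libraries. Without intermittent hypoxia replicate 3 and overlap hypoxia replicate 3 together, an alternative chosen after seeing the data, 1 was called. Overlap against intermittent hypoxia and the departure gave 0 calls under every alternative run for them, and the departure cannot be fitted with only the compared groups. Signs turned for genes with no call in the fit reported, and for Tyrobp and Wfdc17 in intermittent against sustained hypoxia. With the covariate, that comparison gave log2 values of 0.3594 (C1qa), 0.2672 (C1qc), 0.031 (Tyrobp), 0.2103 (Fcer1g), 0.4486 (Aif1) and 0.3645 (Wfdc17). With the length and GC offsets it gave 0.2944 (Fcer1g) and 0.2451 (Aif1), and Cd68 in overlap against sustained hypoxia came to 0.0044. Without single libraries, Cd68 in intermittent hypoxia against room air ran from −0.22 to 0.25, and in intermittent against sustained hypoxia Fcer1g ran from −0.35 to 0.10 and Aif1 from −0.42 to 0.11. In overlap against intermittent hypoxia C1qc ran from −0.38 to 0.08, Lyz2 from −0.25 to 0.32, Tyrobp from −0.41 to 0.05, Aif1 from −0.32 to 0.02 and Wfdc17 from −0.04 to 0.53. The departure ran from −0.04 to 0.49 for C1qa, from −0.12 to 0.50 for C1qb and from −0.06 to 0.38 for Fcer1g. With the covariate Wfdc17 in overlap against intermittent hypoxia was −0.93 and the departure −0.34 for C1qa, −0.26 for C1qb, −0.13 for Fcer1g and −0.10 for Aif1. In overlap against intermittent hypoxia limma-voom gave 0.12 for Lyz2, and Wfdc17 was −0.17 without replicate 3 of both groups, and the length and GC offsets gave a departure of −0.01 for Fcer1g. The causes were not tested. Upper-quartile scaling moved the median of all genes in intermittent hypoxia against room air to 0.12 and left the 8 calls. Deviations of libraries with the same replicate number had a median r of 0.0369 over 24 pairs, 4 of them over 0.1, against −0.0197 over 72 pairs with other numbers, 7 of them over 0.1. As not all same-number pairs were over 0.1, the numbers were not taken as a pairing, and the replicate block pairs samples by number alone. A hint from the data, not the design, is that 8 of 16 libraries were closest to their own number. Depth limits Wfdc17, Fcer1g, Aif1 and Cd68 most, with as few as 11, 22, 34 and 24 counts in a library.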
